A study of Mus musculus with 18 samples.

Results

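Acetylation of lysine 27 of histone H3 (H3K27ac) was measured at the promoters of 23 genes, around their transcription start sites (TSSs), in cerebella of 22-day-old mice (postnatal day 22, P22). The members are all genes of the authors' table that have a score in each of the 4 H3K27ac libraries, 23 of the 24 genes listed; Nt5dc2 has no H3K27ac score. Added to them are the authors' mean H3K27ac curves over 10001 positions from -5000 to 5000 bp of the TSS. One group was wild-type (WT) mice and the other was mice with a conditional knockout (cKO) of Chd4, with 2 libraries in each. The Cre driver, the cells in which Chd4 was deleted and the alleles of the WT mice are not given in the labels. The chromatin of both groups came from cerebellum without a sort for cell type, as far as the labels say, and the same antibody lot was used for the 4 libraries. More acetylation per cell and more cells that carry it therefore cannot be told apart. Whether a group's libraries came from separate mice is not stated, so each p-value refers to variation among the 4 libraries, part or all of which may be technical.

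H3K27ac is deposited by the acetyltransferases p300 and CBP and marks nucleosomes at active promoters and enhancers. Deacetylases remove it. Chd4 is the ATP-dependent remodeling subunit of the nucleosome remodeling and deacetylase complex (NuRD), which also holds the deacetylases Hdac1 and Hdac2 and is known for silencing genes during development. In the cerebellum most neurons are granule neurons, which leave the cell cycle, migrate and form synapses during the first postnatal weeks.

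None of the 13 NuRD genes searched for is in the table, so the loss of Chd4 could not be checked in these libraries. Of 20 marker genes of cerebellar and other cell types, the table holds 3 (Nhlh1, Casq1 and Gnb3), so the tissue label could not be checked either. The scores have no stated unit or zero and some lie below 0, so no ratio of scores is given for a promoter. Over the 23 promoters the mean score was 3.74 and 2.95 in the WT libraries and 7.85 and 10.01 in the cKO libraries. The exact two-sided permutation test of these 4 means gave p = 0.333, the smallest value that 2 libraries against 2 allow. The labels do not say how the genes of the table were selected. Their counts cannot be read as shares of all genes, and a selection made on these same libraries would fix their direction.

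Promoters of the table differ widely in CpG content, a feature that the comparison of genotypes did not use. RefSeq promoter windows (GRCm38.p6), taken here as the 250 bases before the gene start, were found for 13 members, of which 10 have a single window. They were matched by gene symbol, and no coordinates were converted from mm9, so a window need not lie at the start site that the table scored. This holds for the sequences, CpG ratios and motif counts alike. Those among the 3 largest and the 3 smallest changes that have a single window are printed 5′ to 3′ on the gene's strand, with each CpG dinucleotide in capitals. Nhlh1 (chr1:172057597-172057846, minus strand) and Cda (chr4:138367956-138368205, minus strand) stand for the largest changes. Timp2 (chr11:118355412-118355661, minus strand) and Hmcn2 (chr2:31314082-31314331, plus strand) stand for the smallest.
Nhlh1: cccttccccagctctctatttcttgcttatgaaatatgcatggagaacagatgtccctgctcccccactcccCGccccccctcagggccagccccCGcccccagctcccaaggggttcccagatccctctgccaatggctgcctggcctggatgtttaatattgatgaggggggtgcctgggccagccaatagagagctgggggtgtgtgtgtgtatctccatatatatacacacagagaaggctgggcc
Cda: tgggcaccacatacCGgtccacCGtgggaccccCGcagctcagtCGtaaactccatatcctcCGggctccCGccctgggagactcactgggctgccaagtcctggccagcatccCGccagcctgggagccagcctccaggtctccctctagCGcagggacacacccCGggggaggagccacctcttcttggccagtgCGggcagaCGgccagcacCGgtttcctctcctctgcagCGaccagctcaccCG
Timp2: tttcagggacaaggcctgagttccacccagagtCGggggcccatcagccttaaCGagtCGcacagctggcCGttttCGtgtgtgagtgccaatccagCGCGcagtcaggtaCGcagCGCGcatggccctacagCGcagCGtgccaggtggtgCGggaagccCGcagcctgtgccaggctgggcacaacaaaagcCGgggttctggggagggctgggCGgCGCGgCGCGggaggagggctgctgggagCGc
Hmcn2: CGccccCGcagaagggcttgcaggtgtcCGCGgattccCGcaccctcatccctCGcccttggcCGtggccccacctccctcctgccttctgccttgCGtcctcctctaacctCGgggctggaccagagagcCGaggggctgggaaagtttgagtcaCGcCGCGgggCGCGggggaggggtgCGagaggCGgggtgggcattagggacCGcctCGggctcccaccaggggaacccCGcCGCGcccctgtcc

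The Nhlh1 window has 2 CpG dinucleotides, against 14 in that of Cda, 21 in that of Timp2 and 22 in that of Hmcn2. Relative to the number expected from its bases, the Nhlh1 window has 0.0953 of the expected CpG. That of Casq1, another promoter with a large H3K27ac change, has 0.13, whereas Timp2 and Hmcn2 have 0.744 and 0.673. The median over all 32851 windows of the RefSeq table is 0.374. Among the 8 tested members with a single window, the ratio and the log2 change in H3K27ac were related with r = -0.78 (Pearson) and -0.79 (Spearman), given as a description. Nhlh1 and Cplx3 among the 8 entered the test only through their cKO libraries and so had to differ. Nhlh1 also has the lowest ratio and the largest change of the 8. The same ratio had an r of 0.78 with the WT score over the 10 windows. CpG content and the WT level are therefore not separable as correlates of the change, and promoters of 1 set of libraries are not replicates. Cda lies off this order, with a ratio of 0.502 and a log2 change of 1.99.

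An E-box (CANNTG, the same on both strands), the kind of site bound by basic helix-loop-helix factors, is in 7 of the 10 windows and in 66.2% of all windows. The Nhlh1 window has 1, starting at position -203 from the gene start. A GC box (GGGCGG, either strand), which itself holds a CpG, is in 4 of 10 and in 32.7% of all, and CCAAT (either strand) in 5 of 10 and 33.8% of all. The half-site TGACG of the cAMP response element (either strand) is in 0 of 10 windows and in 17.8% of all, and TATAAA (either strand) in 0 of 10 and 12.4% of all. These counts describe the letters of the windows and say nothing of factors bound there. For Mslnl the strand code in the authors' table differs from the strand of the RefSeq window, which was not the case at the other 9.

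Of the 21 promoters that could be tested, 20 (95.2%) had more H3K27ac in the cKO and 0 had less. Limma compared log2(score + 2) between genotypes, with Benjamini-Hochberg adjusted p under 0.05 as the threshold, on promoters with a score of at least 1 in at least 2 of the 4 libraries. The tested promoters are all those of the table that passed this filter. This share is therefore also the background against which single tested promoters have to be read. Duox2 and Mslnl had scores under 1 in all 4 libraries and were not tested. Nhlh1, Elavl2, Ripk4, Cpne6 and Cplx3 entered the test only through their cKO libraries and so had to differ. Without the filter 21 of 23 promoters (91.3%) rose, with Duox2 added. Of the 16 promoters with a WT library at 1 or more, 15 rose. The median log2 change of the 21 was 1.06. The libraries of the genotypes did not overlap at 22 of 23 promoters (95.7%), each time with the cKO higher, and overlapped at Timp2.

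**Figure D1:**
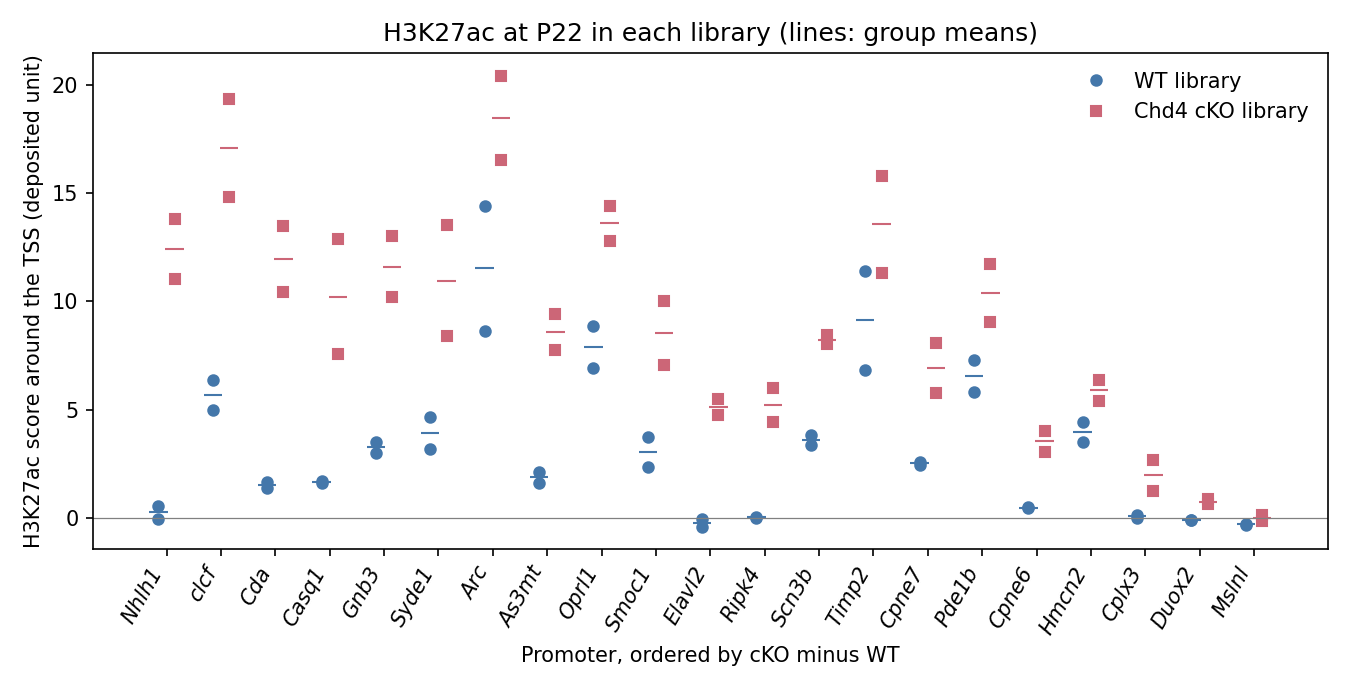
H3K27ac score (y axis, deposited unit) in each WT library (circles) and each cKO library (squares) at 21 promoters, ordered by the difference of the group means (short lines). Nhlh1 goes from near 0 to above 11 and Arc has the highest mean in both groups, while the libraries interleave at Timp2 and stay below 1 at Duox2 and Mslnl.

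On the log2(score + 2) scale the largest changes were at Nhlh1 and Elavl2, both regulators of neuronal gene expression. By score difference Nhlh1 was again first, but Elavl2, with 5.34, lay below clcf, Cda, Casq1 and Gnb3 among others, as it did with a pseudocount of 20 (log2 change 0.345). Nhlh1 encodes a basic helix-loop-helix transcription factor of newly postmitotic neurons, and the table places it on chromosome 1 at position 173987694 (mm9, per the submitters' processing notes). Its H3K27ac score was -0.04 and 0.57 in the WT libraries and 11.03 and 13.79 in the cKO libraries. The lowest cKO value thus lay 10.5 above the highest WT value, the widest gap in the table. The log2 change was 2.68 ± 0.23 (SE, 95% interval 2.22 to 3.14). It is given without a p-value, as for Elavl2, Ripk4, Cpne6 and Cplx3, since these passed the filter only through the cKO. Nhlh1 had rank 18 among the 23 WT means and rank 5 among the cKO means.

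Elavl2, which encodes a neuronal RNA-binding protein of the Hu family, lies on chromosome 4 at position 91066675. Its scores were -0.40 and -0.03 in WT and 5.50 and 4.75 in the cKO, so the groups were far apart and the cKO libraries close together. The log2 change was 2.00. Elavl2 and Duox2 were the 2 promoters at which the second cKO library did not exceed the first.

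Both metabolic enzyme genes rose, as did 95.2% of all promoters tested. With centred libraries Cda was still called higher and As3mt was not (limma adjusted p = 0.12). Cda encodes cytidine deaminase, an enzyme of pyrimidine salvage (chromosome 4, position 137923870). It scored 1.67 and 1.36 in WT and 10.46 and 13.51 in the cKO, a log2 change of 1.99 (limma adjusted p = 4.2e-10). As3mt encodes the methyltransferase of arsenic metabolism (chromosome 19, position 46781933). Its WT scores were 2.14 and 1.62, and its cKO scores 7.78 and 9.40, a log2 change of 1.45 (limma adjusted p = 4.4e-07). At both genes the WT libraries agreed within 0.52 of a score unit, while the cKO libraries differed by up to 3.05.

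Ripk4 and Casq1 are best known from tissues other than brain. Ripk4, a kinase gene of epithelial differentiation (chromosome 16, position 97985362), scored near 0 in WT, at 0.01 and 0.04. In the cKO it scored 4.43 and 6.01, a log2 change of 1.83. Casq1 encodes calsequestrin of skeletal muscle calcium stores (chromosome 1, position 174149970). It scored 1.61 and 1.72 in WT and 7.59 and 12.87 in the cKO, a log2 change of 1.70 (limma adjusted p = 1.3e-08). The cKO libraries of Casq1 differed by 5.28, more than those of any other promoter of the table, yet both stood well above WT. Duox2, an oxidase gene of thyroid and epithelia, was at -0.10 and -0.09 in WT and at 0.89 and 0.62 in the cKO.

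All 9 genes of synapse, excitability and signalling rose, against 95.2% of all promoters tested, with a median log2 change of 0.91 and a range from 0.53 to 1.36. Cpne6 and Cplx3 among them were tested only through their cKO libraries. The median of the group lies below the 1.06 of all 21. With centred libraries, thus relative to the library medians, 0 of the 9 were called higher in the cKO and 3 lower. With each promoter's own spread, Gnb3, Cpne6 and Scn3b were the calls in this group. Gnb3, the G protein beta subunit gene known from photoreceptor signalling (chromosome 6, position 124790293), changed most. Its scores were 3.52 and 3.01 in WT and 10.21 and 13.02 in the cKO. Cpne6, a gene of the calcium-binding copine family (chromosome 14, position 56130197), scored 0.44 and 0.51 in WT and 3.05 and 4.02 in the cKO. The log2 change was 1.36 at Gnb3 (limma adjusted p = 1.3e-06) and 1.16 at Cpne6.

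Syde1, a GTPase-activating protein gene (chromosome 10, position 78054709), scored 4.67 and 3.2 in WT and 8.40 and 13.52 in the cKO, a log2 change of 1.11 (limma adjusted p = 3.5e-05). Cpne7, a second copine gene, had a log2 change of 0.97, from 2.57 and 2.46 to 5.77 and 8.07. At Scn3b, a sodium channel beta subunit gene, the libraries of each group lay closest together relative to the gap: 3.85 and 3.38 in WT against 8.02 and 8.44 in the cKO (log2 change 0.87). Cplx3, a complexin gene of synaptic vesicle release, stayed low, at 0.14 and 0.00 in WT and 1.24 and 2.68 in the cKO (log2 change 0.91).

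The 3 genes of this group with the highest WT scores had the smallest log2 changes. Arc, an immediate early gene of synaptic plasticity, had the highest mean H3K27ac score of the table in both genotypes. In the second WT library Oprl1 was slightly higher. Arc scored 14.43 and 8.63 in WT and 16.56 and 20.44 in the cKO, a score difference of 6.97 and a log2 change of 0.63 (limma adjusted p = 0.0103). The WT libraries of Arc differed by more than any other WT pair. Oprl1, the nociceptin receptor gene, scored 6.92 and 8.86 in WT and 12.79 and 14.42 in the cKO (log2 change 0.66, limma adjusted p = 0.00719). Pde1b, a calmodulin-dependent phosphodiesterase gene, scored 7.29 and 5.81 in WT and 9.03 and 11.75 in the cKO (log2 change 0.53, limma adjusted p = 0.0272). These calls rest on single libraries. Without WT replicate 2, Arc changed by 0.31 (limma adjusted p = 0.31) and Pde1b by 0.41 (limma adjusted p = 0.196), and without cKO replicate 2 by 0.49 and 0.37 (limma adjusted p = 0.0938 and 0.195). With WT replicate 1 left out, Arc changed by 0.94 and Oprl1 by 0.52 (limma adjusted p = 0.0928). Pde1b missed the threshold with the replicate number as a block (limma adjusted p = 0.077).

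Among the 5 genes of extracellular matrix and secreted proteins, 3 rose, 1 was tested and missed the threshold, and 1 was too low to test, where 95.2% of all promoters tested rose. With centred libraries, thus relative to the library medians, 0 of these genes were called higher in the cKO and 2 lower. The promoter listed as clcf, for which no symbol of the RefSeq table matched, lies on chromosome 19 at position 4214392. It scored 6.38 and 5.00 in WT and 14.83 and 19.36 in the cKO. Its score difference of 11.4 was second to the 12.1 of Nhlh1, with a log2 change of 1.31 (limma adjusted p = 2.5e-06). Smoc1, a gene of a secreted calcium-binding matrix protein, scored 3.75 and 2.37 in WT and 7.05 and 10.04 in the cKO (log2 change 1.06).

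Timp2 encodes an inhibitor of matrix metalloproteinases. It scored 11.41 and 6.84 in WT and 11.32 and 15.81 in the cKO, so its groups overlap although limma called it (log2 change 0.50, limma adjusted p = 0.0356). Without WT replicate 2 its change was 0.20 (limma adjusted p = 0.501), without cKO replicate 2 it was 0.29 (limma adjusted p = 0.288), and without WT replicate 1 it was 0.80. It also missed the threshold with the replicate number as a block (limma adjusted p = 0.0908) and with a pseudocount of 1 (limma adjusted p = 0.057). Hmcn2, a hemicentin gene of basement membranes, scored 3.51 and 4.41 in WT and 5.42 and 6.39 in the cKO. Its groups did not overlap, but its log2 change of 0.41 (95% interval -0.05 to 0.87) missed the threshold (limma adjusted p = 0.0803). Mslnl, a mesothelin-like gene, stayed at background, with -0.29 and -0.32 in WT and -0.15 and 0.12 in the cKO.

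A shift common to most promoters underlies these counts. In score units the difference between genotypes and the WT mean were nearly unrelated across the 23 promoters (r = 0.14, a description). WT and cKO means had an r of 0.77. This does not carry over to the log2(score + 2) scale. There Arc, with the highest WT mean, changed by 0.63, and Nhlh1, with a WT mean of 0.265, by 2.68. Cplx3, with a WT mean of 0.07, changed by 0.91. The 5 highest promoters held 53.6% of the summed score in WT and 36.6% in the cKO. The replicates also differed by common shifts. The second cKO library was above the first at 21 of 23 promoters, by a median of 0.28 on the log2(score + 2) scale, and the second WT library was above the first at 8 of 23, with a median difference of -0.12. Limma treats promoters as independent and pooled their spread, so each has the same SE of 0.23, and shifts shared by promoters make its p-values too small. With each promoter's own spread there were 8 calls: Nhlh1, Elavl2, Cda, Ripk4, As3mt, Gnb3, Cpne6 and Scn3b. Of these, Nhlh1, Elavl2, Ripk4 and Cpne6 had passed the filter only through the cKO and had to differ. With the median of its library subtracted from each value, 5 promoters (23.8%) were called higher in the cKO and 6 (28.6%) lower. The 5 were Nhlh1, Elavl2, Cda, Ripk4 and Casq1, with centred log2 changes of 1.51, 0.83, 0.81, 0.65 and 0.53, and Nhlh1, Elavl2 and Ripk4 among them passed only through the cKO. Among the 6 were Hmcn2, Timp2, Pde1b, Arc and Oprl1, with -0.76, -0.67, -0.64, -0.54 and -0.51. Centring subtracts the shift that most promoters share, so changes smaller than it turn negative by construction. As deposited, 0 promoters had both WT libraries above both cKO libraries. Whether the common shift is a change in chromatin or a difference in scale between libraries was not tested.

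**Figure D2:**
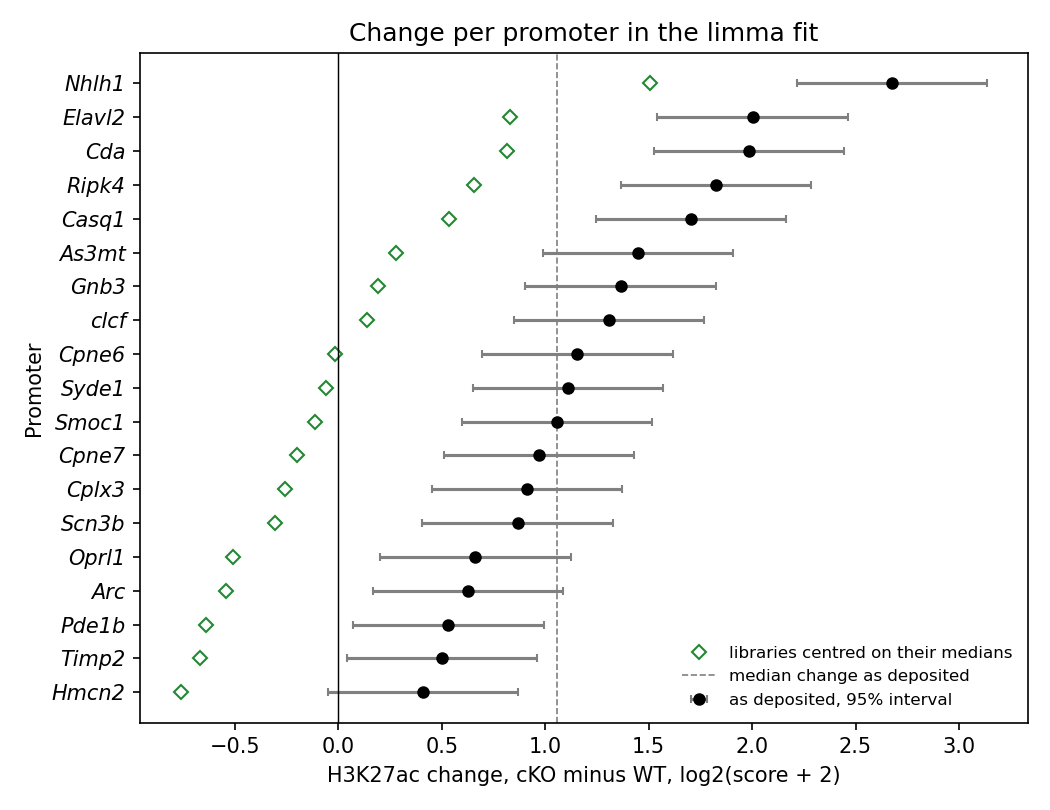
Change in H3K27ac, cKO minus WT on the log2(score + 2) scale (x axis), at 19 tested promoters (y axis), with the 95% interval of the limma fit (circles and bars) and after centring of each library on its median (diamonds). The circles run from 0.41 at Hmcn2 to 2.68 at Nhlh1 around the median of 1.06 (dashed line), and the diamonds fall on both sides of 0.

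The change in H3K27ac was next compared with that of the other marks at the same promoters. These were acetylated lysines 9 and 14 (H3K9/14ac) and trimethylated lysine 4 (H3K4me3), measured in separate libraries of both genotypes at P22. The interaction term of a limma fit called 0 of 22 promoters against H3K9/14ac (0% of those tested), with 0 unadjusted p under 0.05. The changes of both acetylation marks had an r of 0.92 across promoters. Nhlh1, Elavl2 and Cplx3 among them passed the filter only through cKO libraries in either mark. They had to change in both and contribute to this r. The H3K27ac change was the larger one at 13 of 22, and the median difference was 0.06. At a single promoter this comparison is coarse, with an SE of 0.38. At Nhlh1, for example, the difference was 0.09 with a 95% interval from -0.65 to 0.84, and at Cda it was -0.06 with an interval from -0.80 to 0.69. The largest difference was at Gnb3, 0.63 (95% interval -0.11 to 1.38), where H3K9/14ac scored 2.12 and 3.53 in WT and 4.41 and 7.78 in the cKO.

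Against H3K4me3 the interaction also called 0 of 22 promoters (0%), with 2 unadjusted p under 0.05, at Nhlh1 and Oprl1. At both the H3K4me3 change was the larger one, whereas over the 22 promoters the H3K27ac change was larger at 15, with a median difference of 0.20. At Nhlh1 it exceeded that of H3K27ac by 1.32 (difference -1.32, 95% interval -2.27 to -0.38, limma adjusted p = 0.169), and at Oprl1 by 1.08 (difference -1.08 ± 0.45, SE, limma adjusted p = 0.254). With a pseudocount of 1 there were 2 calls, Nhlh1 and Hmcn2, and with centred libraries 9, of which 8 had the larger change in H3K27ac. With a pseudocount of 20 there were 0 calls and the median difference was -0.02. Scores of different antibodies need not share a scale, so which mark has the larger log2 change can depend on the pseudocount.

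Casq1, Hmcn2, Gnb3 and Cpne6 fell under the same filter in H3K4me3 but passed it in H3K27ac. The cutoff was equal for both marks, although scores of different antibodies need not share a scale. At Cpne6 the WT libraries were under 1 in H3K27ac too, and its changes were close (1.16 in H3K27ac, 1.13 in H3K4me3). Of the 4, 3 rose in H3K27ac, against 95.2% of all promoters tested. Cpne6, 1 of these 3, passed the filter only through its cKO libraries and so had to differ. The H3K4me3 score of Gnb3 was -0.52 and -0.38 in WT and -0.09 and 0.47 in the cKO, near 0 in all 4 libraries, while its H3K27ac score reached 13.02. At Hmcn2 H3K4me3 was -0.10 and -0.50 in WT and -0.74 and -0.82 in the cKO, whereas H3K27ac did not go below 3.51. The difference in change between the marks missed the threshold at Casq1 (0.86), Gnb3 (0.88) and Hmcn2 (0.88), with limma adjusted p of 0.311, 0.308 and 0.308.

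**Figure D3:**
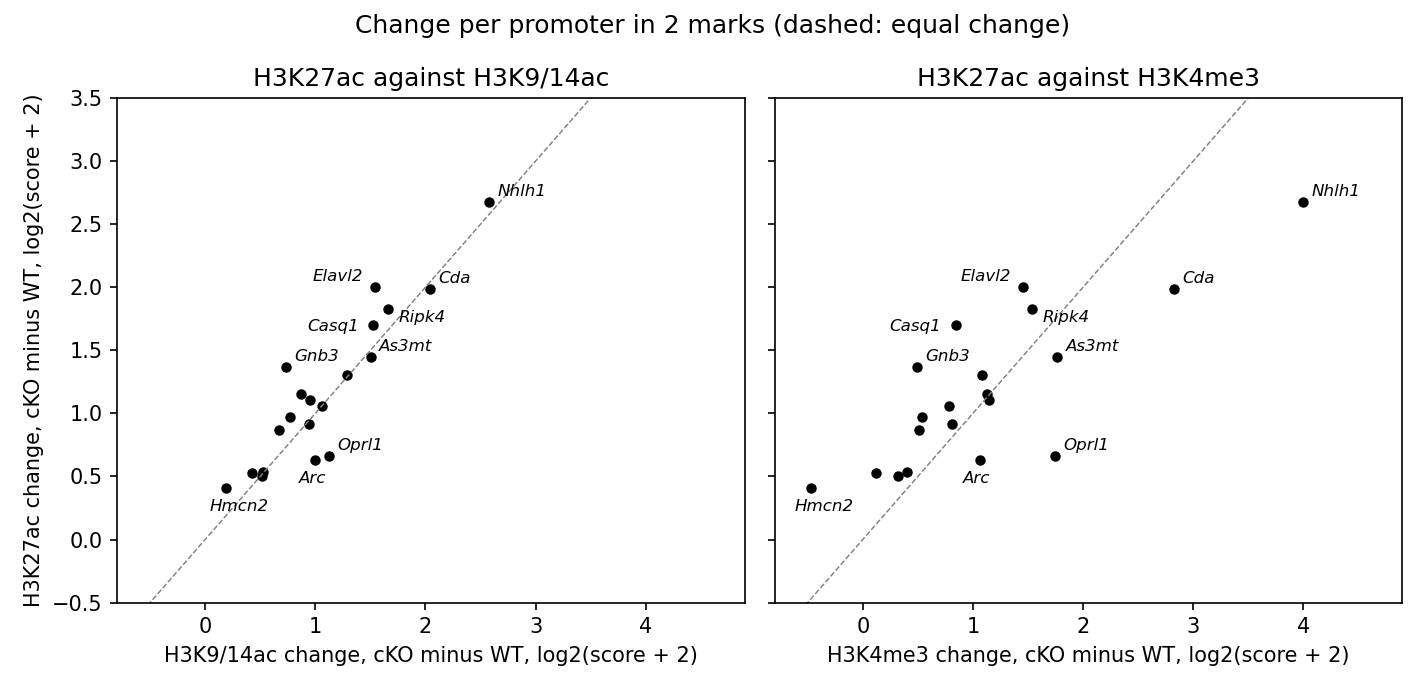
Change in H3K27ac (y axis) against the change in H3K9/14ac (left, x axis) and H3K4me3 (right, x axis), each cKO minus WT on the log2(score + 2) scale, with 1 point per promoter (20 of the 22 tested are drawn) and a dashed line of equal change. Points lie near the line for H3K9/14ac (r = 0.92 over the 22) and scatter more for H3K4me3 (r = 0.81), where Nhlh1 and Oprl1 lie to the right of it and Gnb3 and Casq1 to the left. Nhlh1, Elavl2 and Cplx3 passed the filter only through cKO libraries in each mark.

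The mean curves show at which distances from the TSS H3K27ac differed. The cKO curve was above the WT curve at all 10001 positions, and at 100% of them the gap exceeded both errors added together. That share was 93.3% for H3K9/14ac and 41% for H3K4me3. Errors of the curves are the authors' deposited values, averaged over a window, and neighbouring positions are not independent, so the shares describe the curves and are no test. The genes that were averaged are not named.

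Close to the TSS the difference was largest just inside the gene. It peaked at +238 bp with 0.802 score units, downstream of the maxima of the curves themselves at +137 bp in WT (0.835) and +164 bp in the cKO (1.605). From 0 to 250 bp the level was 0.772 ± 0.095 in WT and 1.47 ± 0.15 in the cKO. From 250 to 500 bp it was 0.618 ± 0.071 and 1.35 ± 0.15. The curves stayed above the midpoint between flank and maximum from -352 to +551 bp in WT and from -68 to +835 bp in the cKO. Each span was counted without a break around its maximum, and both came to 903 bp. The upstream end in the cKO is set by a local low of its curve. Upstream of that low the cKO curve, smoothed over 51 bp, exceeded its midpoint of 0.912 again, with 0.929 at -375 bp and 0.897 at -400 bp. Levels above the midpoint thus reached farther upstream in the cKO than in WT, and the equal lengths are no measure of equal width.

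Upstream of the TSS the cKO curve had a shoulder of its own. Smoothed over 51 bp, it rose to 0.983 at -283 bp, fell to 0.891 at -131 bp and then climbed to its maximum. The WT curve was nearly flat there, at 0.526 at -250 bp and 0.535 at -125 bp, with a largest fall of 0.0056. The difference between genotypes accordingly had a local low of 0.355 at -126 bp, between 0.488 at -336 bp and the maximum downstream. Between -250 and 0 bp the level was 0.543 ± 0.037 in WT and 0.938 ± 0.078 in the cKO. The fall of 0.0923 in the cKO curve is about as large as its deposited error there. Between -400 bp and the TSS the smoothed cKO curve of H3K9/14ac fell by 0.0197, from -250 to -157 bp, and that of H3K4me3 did not fall. The differences between genotypes had local lows in these marks too, at -146 and -171 bp.

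**Figure D4:**
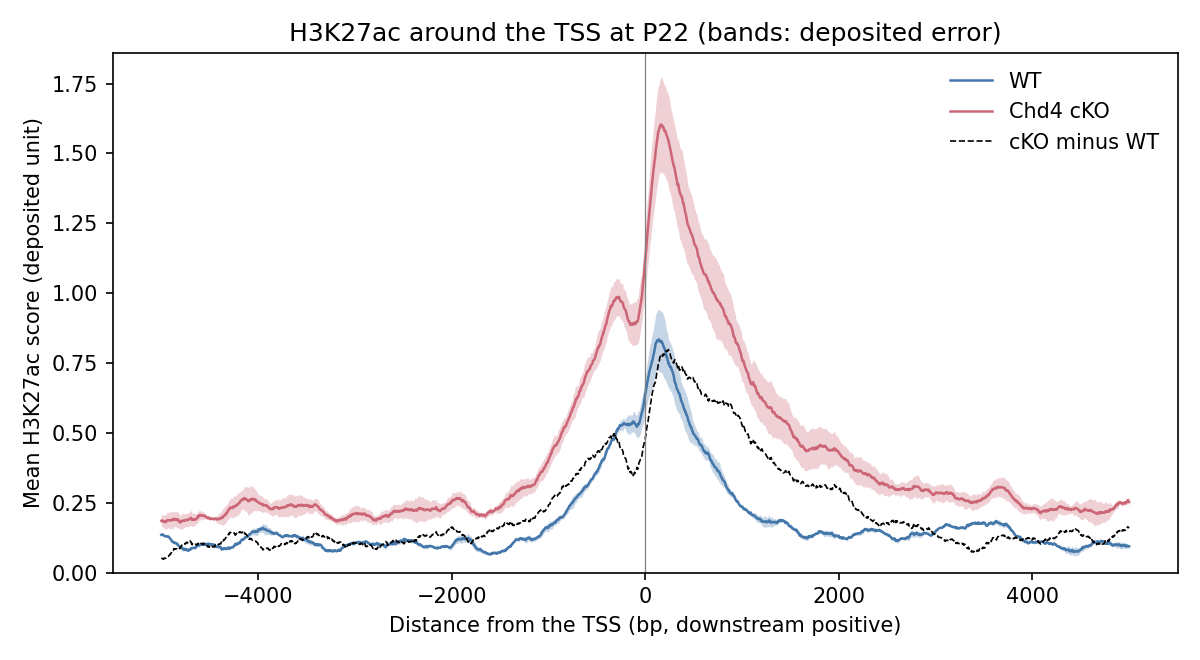
Mean H3K27ac score (y axis, deposited unit) by distance from the TSS (x axis, bp) in WT and cKO, with bands for the deposited error and a dashed line for the difference. The cKO curve peaks at 1.605 at +164 bp with a shoulder at -283 bp, and the dashed line stays above 0 over the whole range.

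As a ratio the difference was greatest downstream of the peak. The cKO to WT ratio was 1.73 ± 0.19 between -250 and 0 bp and 1.90 ± 0.31 from 0 to 250 bp. It was 3.00 ± 0.40 from 750 to 1000 bp and 3.33 ± 0.54 from 1500 to 1750 bp, where levels were 0.138 ± 0.007 in WT and 0.460 ± 0.072 in the cKO. The highest ratio of the smoothed curves was 3.52, at +1653 bp. From 2250 to 2500 bp the ratio was 2.23 ± 0.29. On the upstream side it was 2.73 ± 0.32 between -1500 and -1250 bp. These ratios would differ under another zero of the score, and its zero is not stated.

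The difference did not end within the curve. Between -5000 and -4000 bp H3K27ac was 0.105 ± 0.003 in WT and 0.211 ± 0.0265 in the cKO, and from 4000 to 5000 bp it was 0.098 ± 0.006 and 0.227 ± 0.026. The smallest difference at any position was 0.047. Subtracting each curve's mean over the outermost 1000 bp on both sides left the ratio within 1000 bp of the TSS at 2.16. The ratio over those outermost stretches was itself 2.16, so the subtraction could not change it. By distance the ratio varied, with 1.73 between -250 and 0 bp and 3.33 from 1500 to 1750 bp. Whether a larger scale of the cKO libraries as a whole contributes to the rise around the TSS was not tested.

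The marks differed in how their gain was spread over the sides of the TSS. Of the summed difference within 2000 bp of the TSS, 65.3% lay downstream for H3K27ac, 74% for H3K9/14ac and 93.4% for H3K4me3. The WT curves had the same order, with 59.1%, 61.9% and 70% of their summed score downstream. The mean difference in the outermost 1000 bp on both sides was 0.118, 0.058 and 0.0014, and such an offset moves a share toward an even split. From -1000 to 0 bp the difference was 0.384 for H3K27ac, 0.236 for H3K9/14ac and 0.073 for H3K4me3, with the curves separated by more than their errors at 100%, 100% and 32.7% of positions. From 1000 to 2000 bp it was 0.369, 0.323 and 0.279. No test of these differences between marks was possible on mean curves, and scores of different antibodies need not share a scale.

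**Figure D5:**
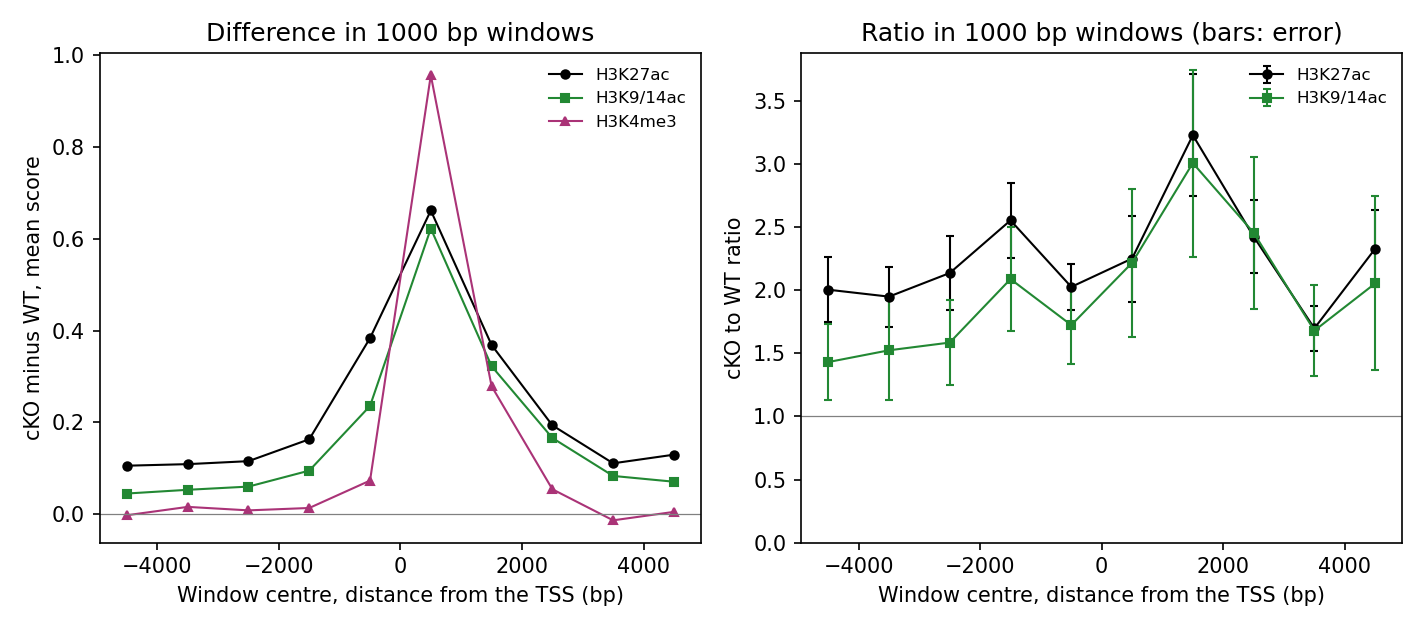
Difference (left, cKO minus WT, mean score) and ratio (right, with the error from the deposited error columns) in windows of 1000 bp by distance from the TSS. H3K27ac gains 0.384 in the window upstream of the TSS and 0.662 in the one downstream, and its ratio is highest, 3.23, from 1000 to 2000 bp; the ratio of H3K4me3 is not drawn because its levels are near or below 0 in several windows.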

How the data were processed

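Chromatin from cerebella was immunoprecipitated and sequenced, per the labels' protocols, and the submitters' processing notes name BWA and the build mm9. The authors' deposited gene table gives a score per promoter and library, and their curve table a mean score per position with an error; how scores were scaled or background removed is not given in the sources used here. Depth and counting error are therefore unknown. By its header the error is a standard error; every H3K27ac value of it (100%) is one that an SD of 2 numbers rounded to 3 decimals can take, so it was read as the deviation between 2 libraries. Curve columns carry no age and were read as P22.

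Limma 3.58.1 (R 4.3.3) compared cKO with WT on log2(score + 2), which understates changes of low promoters. It was run on promoters that scored 1 or more in 2 or more libraries. Its p-values were Benjamini-Hochberg adjusted over the tested promoters. Differences between marks are interaction terms. Ratio errors combine both groups' relative errors. The fit was tested on simulated data with independent errors and no shift shared by promoters, so that test does not cover such shifts. Every promoter with 4 values is a member, the 10 with the largest change are given in full, and members, role groups, lists, pseudocount and filter were chosen with earlier results of these data known. The individual values of 2 promoters are not reported here, although they stayed in fits, counts and means, and 2 inputs and the P6 libraries were not used. Curves were summarised with pandas 2.3.3 and numpy 2.4.6 under Python 3.11.15, and drawn with matplotlib 3.10.9. Alternatives are given in the closing section.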

Additional observations from a re-analysis of the deposited data

How the results depend on the processing

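The 20 calls became 19 with a pseudocount of 1 or 20, 18 without a log scale and 21 of 23 without the filter, where Duox2 was added (limma adjusted p = 0.0226). They ranged from 15 (without WT replicate 2) to 20 (without cKO replicate 1) when single libraries were left out. With each promoter's own spread they numbered 8. Centring the libraries gave 11 calls, 5 higher and 6 lower, and moved the median change from 1.06 to -0.11; without the filter as well, a setting added after the data were seen, it gave 13, of which 8 were lower, and a median of -0.18. Among the log2 changes that centring turned below 0 were -0.76 for Hmcn2, -0.67 for Timp2, -0.64 for Pde1b, -0.54 for Arc, -0.51 for Oprl1, -0.30 for Scn3b, -0.26 for Cplx3, -0.20 for Cpne7, -0.11 for Smoc1, -0.062 for Syde1 and -0.015 for Cpne6. Without the filter as well the first 10 were -0.74, -0.65, -0.62, -0.52, -0.48, -0.28, -0.24, -0.18, -0.089 and -0.039. Centring here subtracts the shift that most promoters share, so changes smaller than it turn negative by construction.

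The interaction with H3K9/14ac gave 1 call, Gnb3, with centred libraries. The interaction with H3K4me3 gave 2 calls with a pseudocount of 1 and 9 with centred libraries; the cause was not tested. With the replicate number as a block there were 18 calls for H3K27ac, and Pde1b and Timp2 were lost. The labels give the libraries shared numbers and no shared litter or day, and same-numbered libraries did not deviate together (r = -0.29 over promoters). Crossed numbers, added after the data were seen, gave 21 calls. The ratio of the curves within 1000 bp of the TSS was 1.96 to 2.34 with windows of 500 and 2000 bp, within its error of 0.27. The unknown depth limits all of these values.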
